A study of Mus musculus with 20 samples.

Results

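S100a8, S100a9, Lcn2, Camp, Ngp, Mmp8, Mmp9, Retnlg and Csf3r, 9 genes known from neutrophils, were followed through RNA of donor CD8+ T cells recovered from liver, lung, small intestine and blood. They are 9 of the 20886 genes that had a named probe on the array. They were chosen after the liver arrays had been seen to hold more of this RNA than the blood arrays, so the difference between liver and blood is given as a description and with no test. For a gene with several probes the one brightest on average was read. Each value below is a log2 signal relative to the array's own 75th percentile, so 0 marks the 75th percentile and a step of 1 stands for a factor of 2.

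The 4 groups were livers, lungs, small intestines and peripheral blood, with 5 arrays each. All came from irradiated C57Bl/6 m-act OVA females, aged 8 to 16 weeks, which carry an ovalbumin transgene under the CAG promoter. They had received 11 Gy and a graft of marrow cells and splenocytes that included OT-I cells, whose T cell receptor recognises an ovalbumin peptide. The recipients were killed on day 4 with lethal acute graft-versus-host disease. No unirradiated or ungrafted control was analysed here. The grafted OT-I cells carried the CD45.1 allele, every other graft cell and the recipients carried CD45.2, and the cells were recovered by magnetic selection for CD45.1. RNA went through repeated linear amplification before hybridisation. Array numbers 1 to 5 are the replicate numbers of the titles, and the arrays of a number shared a slide. The labels do not say which animal an array came from. A p-value here therefore reflects how far these arrays scatter, which may be technical, and precision is limited by there being 5 of them per site.

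Neutrophils are short-lived phagocytes that build their granules in a fixed order while they mature in the marrow. Primary granules come first, with myeloperoxidase and serine proteases. Secondary granules follow, with lactoferrin, lipocalin-2, cathelicidin and Ngp, and gelatinase granules with Mmp9 are made late. S100a8 and S100a9 pair as calprotectin, an abundant protein of the neutrophil cytosol, and Csf3r is the receptor for the cytokine G-CSF. In graft-versus-host disease neutrophils enter the intestine and other target organs early after conditioning.

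The share of probes well above background was 22.6% to 38.7% per array, and the 75th percentile signal was 823 to 2845. T cell genes such as Cd3e, Cd8a and Lck checked the labelled cell type: of the 14 listed T cell identity genes with a probe, 12 to 14 were well above background on every array, and the mean of the 13 tested ones lay between 3.60 and 5.56. The arrays labelled liver 5 and small intestine 5 went against their sites in markers of intestinal epithelium and Paneth cells. Liver 5 had 8 of these 12 markers well above background, against 1 to 3 on the other liver arrays, and small intestine 5 had 3, against 7 to 12 on the other small intestine arrays. Differences between sites that include liver or small intestine are therefore also given without them. In RNA of whole sorted fractions, fewer cells of a type and less RNA per cell cannot be told apart.

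Csf3r was well above background on all 20 arrays, S100a9 and Lcn2 each on 12, S100a8 on 9, Camp on 6 and Retnlg on 1. Ngp, Mmp8 and Mmp9 were well above background on 0 arrays. Thus 6 of the 9 genes were seen at least once, and 4 (S100a8, S100a9, Lcn2 and Csf3r) met the filter for testing, which asked that 1 site or more have the probe well above background on 4 or 5 of its 5 arrays. S100a8 and S100a9 met it through lung alone and Lcn2 through liver and lung, the sites where they are bright. The detected genes were nested: all 9 arrays with S100a8 also had S100a9 and Lcn2, and all 6 arrays with Camp also had S100a8.

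With Csf3r set aside, the 8 other genes gave 14 detections over the 5 liver arrays, 14 over the lung arrays, 7 over the small intestine arrays and 5 over the blood arrays. Single arrays carried much of the low totals: without small intestine 5 the small intestine arrays gave 3, and without blood 4 the blood arrays gave 2. Leaving out liver 4 gave 9 over the liver arrays. On small intestine 5 the dimmest probe well above background lay at -2.01, against -0.83 to -0.35 on the other small intestine arrays, and the part of this lower limit in its detections was not tested. Liver 4 had the most, with 5 of the 8, and liver 1, liver 2, lung 1, lung 2 and small intestine 5 had 4 each. On 6 arrays none of the 8 was detected, and the array numbered 3 was among these at every site. The 4 arrays numbered 3 share a slide, and the part of the slide in this was not tested.

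**Figure D1:**
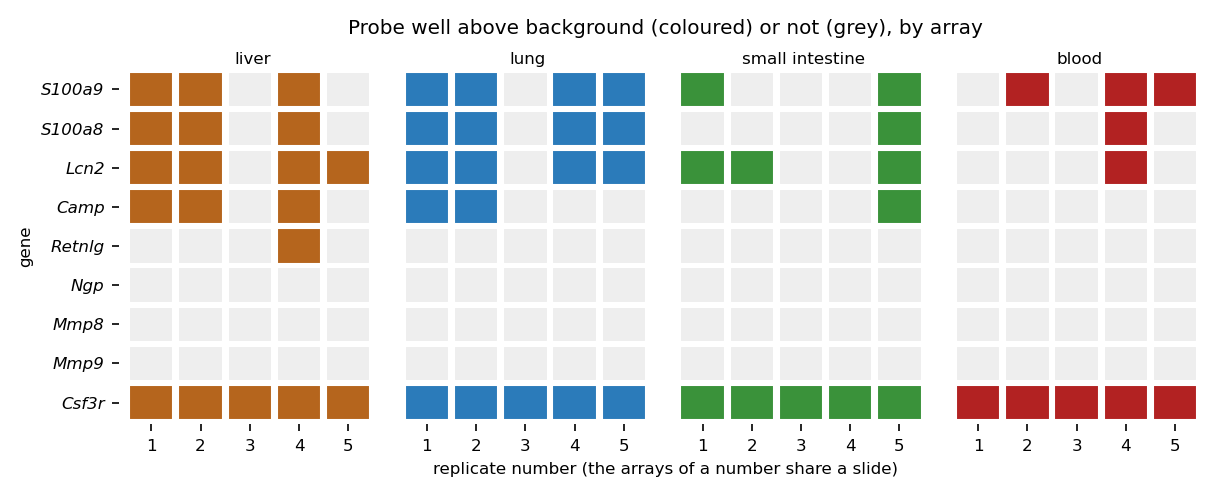
Each tile is 1 gene (rows) on 1 array (columns, grouped by site and numbered by replicate), coloured where the probe was well above background and grey where it was not. Csf3r was detected on all 20 arrays, Ngp, Mmp8 and Mmp9 on none, and the arrays numbered 3 had Csf3r alone.

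The upstream sequences of the 4 genes that were seen together, S100a8, S100a9, Lcn2 and Camp, are shown because they are the ones the results turn on. They are the 250 bases before the annotated start in RefSeq, build GRCm38.p6, at chr3:90668821-90669070 on the plus strand for S100a8, chr3:90695722-90695971 on the minus strand for S100a9, chr2:32387740-32387989 on the minus strand for Lcn2 and chr9:109849457-109849706 on the minus strand for Camp. Capitals mark matches on either strand to TTNNGCAA, a core of the sites of C/EBP factors, and to GAGGAA, a core of the sites of PU.1, factors that act in the making of granulocytes. The 2 motifs do not overlap in these windows.
S100a8: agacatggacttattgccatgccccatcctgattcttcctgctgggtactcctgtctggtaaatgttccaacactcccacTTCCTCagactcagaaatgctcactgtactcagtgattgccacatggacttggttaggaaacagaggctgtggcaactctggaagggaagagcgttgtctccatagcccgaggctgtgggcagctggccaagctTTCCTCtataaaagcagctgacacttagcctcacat
S100a9: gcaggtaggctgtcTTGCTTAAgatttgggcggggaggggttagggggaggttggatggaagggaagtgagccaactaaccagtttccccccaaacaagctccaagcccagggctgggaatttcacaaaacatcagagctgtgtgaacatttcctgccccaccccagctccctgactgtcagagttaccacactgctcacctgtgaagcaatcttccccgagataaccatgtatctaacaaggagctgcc
Lcn2: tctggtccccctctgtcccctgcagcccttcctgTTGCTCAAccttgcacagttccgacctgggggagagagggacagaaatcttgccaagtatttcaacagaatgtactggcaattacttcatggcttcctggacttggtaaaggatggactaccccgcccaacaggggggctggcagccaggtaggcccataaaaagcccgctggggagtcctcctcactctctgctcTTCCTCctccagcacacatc
Camp: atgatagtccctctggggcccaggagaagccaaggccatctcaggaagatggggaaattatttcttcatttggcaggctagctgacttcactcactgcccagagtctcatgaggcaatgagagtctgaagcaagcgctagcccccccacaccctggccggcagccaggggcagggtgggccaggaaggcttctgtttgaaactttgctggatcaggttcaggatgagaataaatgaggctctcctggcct
S100a9 and Lcn2 each held 1 match to TTNNGCAA, and S100a8 and Camp held 0. S100a8 held 2 matches to GAGGAA, Lcn2 held 1, and S100a9 and Camp held 0. Of 32851 mouse promoter windows of the same length, 9.564% held TTNNGCAA and 23.25% held GAGGAA. A match is a string of letters and not a measured site. Upstream sequences were found for 8 of the 9 genes, all but Mmp9. Among those not shown, Ngp held 2 matches to TTNNGCAA, Mmp8 and Retnlg held 1 each, and Csf3r held 0. Mmp8 and Csf3r held 1 match to GAGGAA each, and Ngp and Retnlg held 0. The motifs were thus not particular to the genes seen together. S100a8 and S100a9 are neighbours on chromosome 3 with 0 protein-coding genes between them, and Camp and Ngp lie on chromosome 9 with 8 between them.

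S100a8 encodes the smaller calprotectin subunit. Its values were 0.27, 0.49, -2.97, 3.33 and -1.77 on liver arrays 1 to 5. Lung arrays read -0.42, 2.00, -2.36, 0.40 and 0.22, and small intestine arrays read -2.59, -2.85, -2.57, -2.62 and -1.21. Blood arrays read -2.17, -2.97, -3.89, 0.38 and -1.17. Liver 1, 2 and 4, lung 1, 2, 4 and 5, small intestine 5 and blood 4 were the arrays where the probe was well above background, and the range of each site overlapped that of every other. Site means were -0.13 ± 2.41 in liver, -0.030 ± 1.58 in lung, -2.37 ± 0.66 in small intestine and -1.97 ± 1.65 in blood (SD, n = 5 each).

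S100a9 encodes the partner subunit. It read 2.66, 3.16, -2.95, 5.56 and -1.07 on liver arrays 1 to 5, with lung arrays at 1.90, 4.39, -2.31, 3.91 and 2.86. Small intestine arrays read 0.20, -0.50, -2.92, -2.56 and 1.16, and blood arrays read -1.28, -0.56, -3.81, 2.26 and -0.73. The high arrays were those of S100a8, and blood 4 was again the high one among the blood arrays. Means were 1.47 ± 3.43 in liver, 2.15 ± 2.67 in lung, -0.92 ± 1.77 in small intestine and -0.82 ± 2.16 in blood (SD, n = 5 each).

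Lcn2 encodes lipocalin-2, a secondary granule protein that binds bacterial iron carriers and that epithelia also make. Liver arrays read 1.30, 1.28, -2.79, 4.52 and 4.44, and lung arrays read 1.14, 2.97, -1.40, 0.36 and 1.29. Small intestine arrays read 0.67, 0.60, -0.66, -1.54 and -0.0011, against -1.08, -1.24, -3.68, 0.58 and -1.14 on blood arrays. Liver 5 is where Lcn2 parted from the other genes: at 4.44 it was close to liver 4, while S100a8, S100a9 and Camp were not well above background there. That array is the liver array with 8 of 12 intestinal epithelium and Paneth cell markers, whose part in the Lcn2 value was not tested. Means were 1.75 ± 3.00 in liver, 0.87 ± 1.59 in lung, -0.18 ± 0.93 in small intestine and -1.31 ± 1.52 in blood (SD, n = 5 each).

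Camp encodes the precursor of the antimicrobial peptide cathelicidin. Its probe was well above background on liver 1, 2 and 4, with 0.97, 1.31 and 4.47, on lung 1 and 2, with 0.17 and 1.54, and on small intestine 5, with -1.13. The probe was well above background on no blood array, and blood values ran from -3.85 to -2.17. With blood held at the background limit the liver arrays were at least 2.28-fold higher, and this bound rested on liver 4: without it the bound was 1.08-fold, without liver 3 it was 3.89-fold and without liver 5 it was 3.99-fold. For this bound each blood array was given its own Camp signal or that of the dimmest probe well above background on it, whichever was higher. Camp failed the filter and was not tested in any comparison. The second Camp probe on the array followed the first with a Pearson correlation of 0.98 over the 20 arrays and was well above background on 5.

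Retnlg, a resistin-like secreted protein of mouse neutrophils, was detected on liver 4 alone, at 0.11, and lay between -3.54 and -2.98 on the other liver arrays, between -3.23 and -1.55 on lung arrays, between -4.27 and -2.62 on small intestine arrays and between -3.89 and -2.21 on blood arrays. The 3 genes seen nowhere were Ngp, a cystatin-related protein of secondary granules, Mmp8, the neutrophil collagenase, and Mmp9, the gelatinase of late granules. Signals of these probes ran from -3.83 to -1.91 for Ngp, from -3.84 to -0.86 for Mmp8 and from -4.11 to -2.04 for Mmp9. None of these values is a measured level, and they carry no order.

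Csf3r was detected at every site. Liver arrays read 5.69, 5.78, 6.88, 6.65 and 5.55, and lung arrays read 5.72, 5.59, 6.63, 5.71 and 6.30. Small intestine arrays read 4.92, 5.34, 6.32, 5.38 and 5.61, against 5.66, 5.99, 6.09, 6.36 and 5.90 on blood arrays. It was bright on every array, including the arrays numbered 3 where no other of the 9 genes was seen. Means were 6.11 ± 0.61 in liver, 5.99 ± 0.45 in lung, 5.51 ± 0.51 in small intestine and 6.00 ± 0.26 in blood (SD, n = 5 each), and no neighbouring pair in this order differed beyond its spread.

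**Figure D2:**
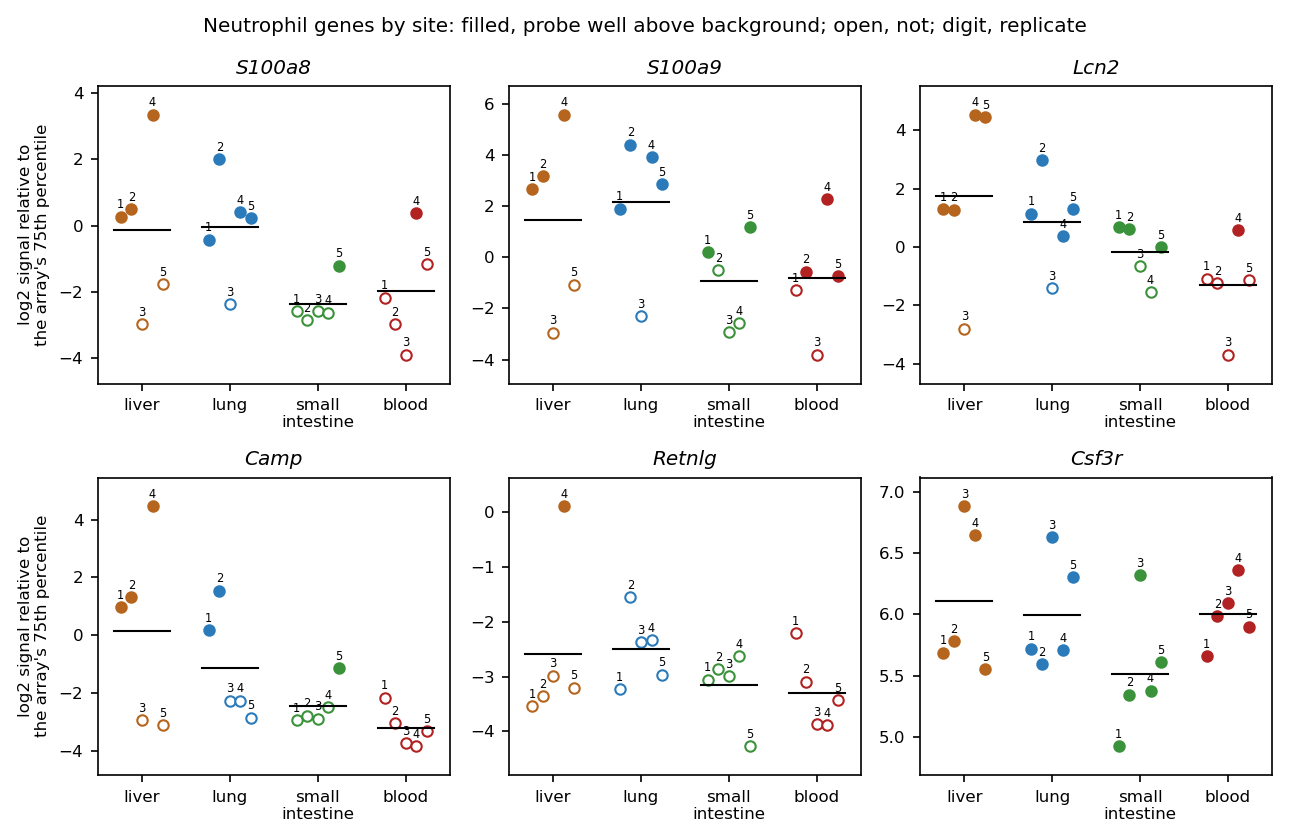
Log2 signal relative to the array's 75th percentile (vertical axis, a different range in each panel) for the 6 genes detected at least once, by site. Filled points were well above background, open points were not, digits are replicate numbers and bars are means of 5 arrays. S100a9 spans -2.95 to 5.56 within the liver arrays, and Csf3r stays between 4.92 and 6.88 on all 20 arrays.

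The spread between arrays of a site was wide for the calprotectin genes and Lcn2. The pooled SD within sites was 2.58 for S100a9, 1.92 for Lcn2 and 1.69 for S100a8, against a median of 0.56 over the 8056 tested genes. That was larger than the SD of 99.8%, 99.2% and 98.8% of the tested genes. For Csf3r the pooled SD was 0.48, larger than that of 36.4%. The filter admits genes that are bright on some arrays and at background on others, and its part in these SDs was not tested.

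Across the 20 arrays the detected genes other than Csf3r and Retnlg correlated with one another. S100a8 and S100a9 had a Pearson correlation of 0.93 (Spearman 0.86), and 0.91 without the 2 arrays farthest from the median, liver 4 and lung 2. S100a9 and Lcn2 had 0.73 (0.78), and 0.61 without the same arrays. Without liver 5 and small intestine 5 the correlation of S100a9 with Lcn2 was 0.90. S100a8 and Camp had 0.77 (0.59), and 0.53 without liver 4 and lung 2. Lcn2 and Camp had 0.61 (0.49), and 0.39 without blood 3 and liver 4. After the site means were taken out the correlation of S100a8 with S100a9 was 0.92 and that of S100a9 with Lcn2 was 0.70. Csf3r correlated at 0.13 with S100a8, -0.073 with S100a9 and -0.19 with Lcn2. It correlated at 0.60 with the mean of the T cell identity genes, where S100a8, S100a9 and Lcn2 had 0.14, 0.010 and 0.076. These are descriptions over arrays that share slides, sites and a scaling, and they are given without a p. They use all 20 values of a gene, though S100a9 and Lcn2 were well above background on 12 arrays, S100a8 on 9 and Camp on 6. Values at background have no order, and their part in the correlations was not tested.

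**Figure D3:**
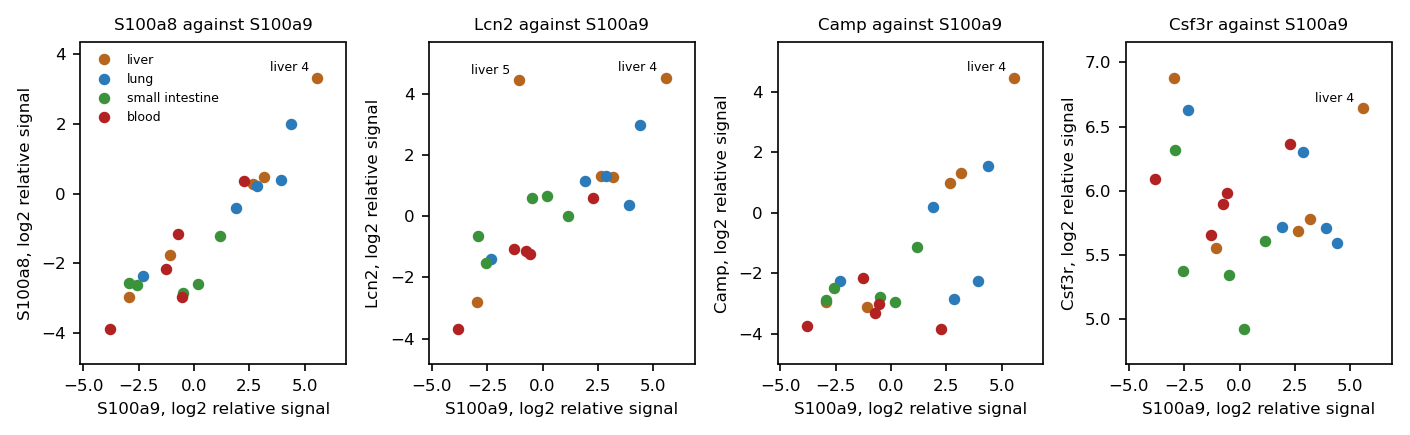
Log2 relative signal of S100a8, Lcn2, Camp and Csf3r (vertical axes) against that of S100a9 (horizontal axis), 1 point per array and coloured by site. Points at background are included. S100a8 rises with S100a9, liver 5 lies off the Lcn2 trend at 4.44, Camp stays low on several arrays with high S100a9, and Csf3r shows no trend.

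For liver against blood, the comparison that chose the genes, the differences were 1.84 for S100a8, 2.30 for S100a9, 3.06 for Lcn2 and 0.11 for Csf3r on the log2 scale, and Camp has the bound given above. Each slide held 1 array of each site. A slide is counted if 1 or both of the arrays compared measured the gene, since 2 values at background have no order. Liver exceeded blood on 3 of 3 such slides for S100a8 and Camp, on 3 of 4 for S100a9, on 4 of 4 for Lcn2 and on 3 of 5 for Csf3r. Camp was well above background on no blood array, so each slide counted for it set a liver signal against background. The genes were chosen with this comparison in view, and the slide counts are no support for a rise in liver. The liver and blood ranges of the 4 tested genes overlapped. Between these sites 1.03% of the 8056 tested genes did not overlap, and limma called 0% of the tested genes at an adjusted p under 0.05 (225 at an unadjusted p under 0.05), so the array as a whole gave no call here. With liver 5 and small intestine 5 left out the differences were 2.25 for S100a8, 2.93 for S100a9, 2.39 for Lcn2 and 0.25 for Csf3r.

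The comparison of lung with blood was not used in the choice, though it shares the blood arrays with the one that was. S100a8 and S100a9 met the filter through lung alone and Lcn2 through liver and lung, so a site where they are high admitted them. Their p-values and slide counts here are no support for a rise in lung. Of the 5 blood arrays, S100a8 and Lcn2 were well above background on 1 each and S100a9 on 3. S100a9 differed by 2.97 ± 1.47 (SE), with lung above blood on 4 of 4 slides and a limma adjusted p of 0.155. The difference for S100a8 was 1.94 ± 0.97, also on 4 of 4 slides, adjusted p 0.159, and that for Lcn2 was 2.19 ± 1.09 on 3 of 4 slides, adjusted p 0.159. Csf3r differed by -0.0091 ± 0.31, adjusted p 0.983. Thus 0 of the 4 tested genes passed the threshold, where 0.819% of all tested genes did (66 of 8056). The unadjusted limma p-values of S100a8, S100a9 and Lcn2 were 0.0592, 0.0561 and 0.0594, where 2721 of the 8056 genes had one under 0.05. The 95% intervals of these 3 reached from -0.083 to 3.95, from -0.086 to 6.03 and from -0.095 to 4.47, and the arrays set no tight limit on these differences. The lung and blood ranges of each of the 4 overlapped, where 6.93% of the tested genes did not overlap. Camp was detected on 2 lung arrays and on no blood array, and its bound came out under 1, so no fold is given.

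Small intestine against blood gave differences of both signs. These were -0.40 ± 0.97 (SE) for S100a8, adjusted p 0.747, -0.098 ± 1.47 for S100a9, adjusted p 0.962, 1.13 ± 1.09 for Lcn2, adjusted p 0.416, and -0.49 ± 0.31 for Csf3r, adjusted p 0.250, all with limma. None of the 4 was called, where 10.8% of the tested genes were (873 of 8056). None had an unadjusted limma p under 0.05, where 2638 of the 8056 genes did. All 4 overlapped between the sites, where 8.3% of the tested genes did not. S100a8 was well above background on 1 of 5 small intestine and 1 of 5 blood arrays, so this largely compares background with background. S100a9 had 2 and 3 such arrays, and Lcn2 had 3 and 1. Values at background have no order, which limits the reading of the signs. With liver 5 and small intestine 5 left out the differences were -0.69 for S100a8, -0.62 for S100a9, 1.08 for Lcn2 and -0.51 for Csf3r, with limma adjusted p-values of 0.583, 0.742, 0.428 and 0.202.

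Lung against liver gave no call among these genes. The differences lung minus liver were 0.10 ± 0.97 (SE) for S100a8, 0.68 ± 1.47 for S100a9, -0.88 ± 1.09 for Lcn2 and -0.12 ± 0.31 for Csf3r, with limma adjusted p-values of 0.946, 0.759, 0.587 and 0.798. The intervals were wide, from -2.38 to 3.74 for S100a9 and from -1.92 to 2.12 for S100a8, so the arrays do not show that the sites held alike amounts. With liver 5 and small intestine 5 left out the differences were -0.31 for S100a8, 0.041 for S100a9, -0.21 for Lcn2 and -0.26 for Csf3r, with limma adjusted p-values of 0.824, 0.984, 0.898 and 0.551. None of the 4 was called or separated the sites, where 0.286% of all tested genes were called and 4.65% did not overlap. In detection the sites differed for Camp, seen on liver 1, 2 and 4 and on lung 1 and 2, while lung 4 and 5 had S100a9 at 3.91 and 2.86 with Camp at -2.26 and -2.86, not well above background.

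Small intestine minus liver was -2.24 ± 0.97 (SE) for S100a8, -2.39 ± 1.47 for S100a9, -1.94 ± 1.09 for Lcn2 and -0.60 ± 0.31 for Csf3r, and limma's adjusted p-values were 0.197, 0.324, 0.289 and 0.250. S100a8 was well above background on 1 small intestine array and on 3 liver arrays. This comparison shares the liver arrays with the one that chose the genes, which were chosen for being higher on those arrays. Lcn2 also met the filter through liver and lung. The differences and p-values of these genes are therefore no support for a fall in small intestine. The comparison made 0 calls among all 8056 genes (0%), with 1776 at an unadjusted p under 0.05. The 4 genes overlapped between the sites, where 1.27% of the tested genes did not. The number of calls over all genes changed with the arrays labelled liver 5 and small intestine 5, while the 4 genes kept their signs and stayed uncalled. Without them the differences were -2.94 for S100a8, -3.55 for S100a9, -1.31 for Lcn2 and -0.76 for Csf3r, with limma adjusted p-values of 0.0665, 0.122, 0.382 and 0.118, and 1311 genes were called in all.

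Small intestine against lung shares no array with the comparison that chose the genes. S100a8 and S100a9 met the filter through lung alone, so they were admitted by the site where they are high. Lcn2 met it through liver and lung. The p-values and slide counts of these genes are therefore no support for a fall in small intestine. The differences were -3.07 ± 1.47 (SE) for S100a9 and -2.34 ± 0.97 for S100a8, each negative on 4 of 4 slides, with limma adjusted p-values of 0.60 and 0.472 and unadjusted p-values of 0.0492 and 0.0254. For Lcn2 the difference was -1.06 ± 1.09, negative on 4 of 4 slides, with limma adjusted p 0.869, and for Csf3r it was -0.48 ± 0.31, negative on 5 of 5 slides, with adjusted p 0.797. None of the 4 was called, where 0.149% of the tested genes were (12 of 8056). At an unadjusted limma p under 0.05 there were 664 of the 8056 genes. Each of the 4 overlapped between the sites, where 1.08% of the tested genes did not. With liver 5 and small intestine 5 left out the differences were -3.59 for S100a9, adjusted p 0.307, -2.63 for S100a8, adjusted p 0.237, -1.10 for Lcn2, adjusted p 0.802, and -0.50 for Csf3r, adjusted p 0.595. The probe of S100a8 was well above background on 1 of the 5 small intestine arrays, so for that gene the comparison is largely one of lung with background.

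**Figure D4:**
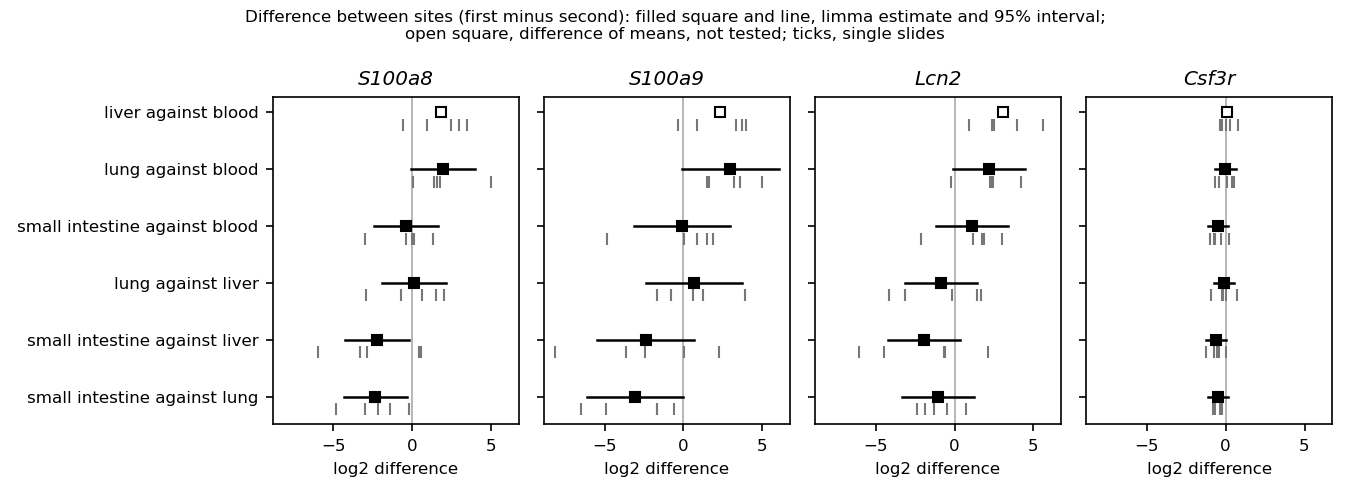
Differences between sites in log2 signal (horizontal axis, first site minus second) for the 4 genes that met the filter. Filled squares with lines are limma estimates with 95% intervals, open squares are differences of means with no test, and grey ticks are the differences within single slides, those with both arrays at background included. The intervals of S100a8, S100a9 and Lcn2 span several units. Those of Csf3r are narrower, and in small intestine against liver the interval runs from -1.24 to 0.043.

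Other neutrophil genes were read from lists to place the 9. Of 22 other secondary, tertiary and secreted granule genes, 20 had a probe, 13 were ever well above background and 8 were tested. In lung against blood 3 of these 8 rose and 0 fell, where 0.819% of all tested genes were called, and in the other 5 comparisons 0 were called. Chil3, a chitinase-like protein of neutrophils and of alveolar macrophages, was higher by 7.75 ± 1.62 (SE), limma adjusted p 0.0264. Wfdc21, a small secreted whey acidic protein, was well above background on no blood array and was at least 3.64-fold higher, adjusted p 0.0264. Mcemp1, a mast cell and myeloid membrane protein, was higher by 2.23 ± 0.51, adjusted p 0.0440. Chil3 and Wfdc21 were higher on 4 of 4 slides and Mcemp1 on 5 of 5. Chil3 and Wfdc21 met the filter through lung alone, with 4 lung arrays and at most 1 array of any other site well above background, so they were admitted by the site where they are high and their calls are no support for a rise of the list. Mcemp1 met it through liver and lung, and the same holds for its call.

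Those 3 calls depended on single arrays, and each was also lost with quantile normalization (adjusted p 0.0583 for Chil3, 0.0534 for Wfdc21 and 0.0813 for Mcemp1). Chil3 lost its call without lung 4 (adjusted p 0.105), lung 5 (0.0953), blood 2 (0.0625), blood 3 (0.0982) or blood 4 (0.0814). Wfdc21 lost it without lung 4 (0.0807), lung 5 (0.0952), blood 2 (0.0619), blood 3 (0.0982), blood 4 (0.0720) or blood 5 (0.0679). Mcemp1 lost it without lung 4 (0.122) or lung 5 (0.163), without any 1 blood array (0.0719 to 0.132), without any 1 of liver 1 to 4 (0.0514 to 0.0623) and without any 1 of small intestine 1 to 3 (0.0528 to 0.0557). Alveolar macrophage markers moved with the same arrays. All 10 were well above background on lung 1, 4 and 5, 9 on lung 2 and 1 on lung 3, against 1 to 4 on the blood arrays, and their mean ran from -1.83 to 5.49 over lung arrays and from -3.09 to -1.37 over blood arrays. Chil3 is on both lists. In lung against blood 5 of 9 tested alveolar macrophage markers were called higher, where 0.819% of all tested genes were called. Those called met the filter through lung alone. The part of the alveolar macrophage markers in the 3 calls of granule genes was not tested. Nor was their part in the lung values of S100a8, S100a9 and Lcn2.

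Haptoglobin (Hp), a haemoglobin-binding protein of neutrophil granules and of the liver, was the gene most like them in its pattern, by the Pearson correlation with the mean of the 4 tested genes over 20 arrays (0.77, Spearman 0.69, and 0.64 without liver 4 and lung 2). It was well above background on 9 arrays, with 3.57 on liver 4 and 3.44 on lung 2. The next were Klhl5 at 0.63, Cd9, a tetraspanin, at 0.61, Chil3 at 0.61, Ramp1 at 0.60, Zfp710 at 0.60, Wfdc21 at 0.60, Anxa1, a phospholipid-binding protein, at 0.59, Xpr1 at 0.59 and Plxnd1 at 0.59. The lowest correlations were those of Zfp329 at -0.74, Hgh1 at -0.69, Abhd11 at -0.66, Zfyve26 at -0.65 and Asns, asparagine synthetase, at -0.64. These rank the tested genes outside the 9 over 20 arrays, values at background included, and no p is given.

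Lactoferrin (Ltf), a typical secondary granule protein, was well above background on liver 4 alone, at 1.40. Itgb2l, Fcnb, Padi4 and the stefins Stfa1, Stfa2, Stfa2l1 and Stfa3 were well above background on 0 arrays. Of 7 primary granule and precursor genes, Mpo, Prtn3 and Ms4a3 were seen nowhere, Elane was seen on liver 5 and small intestine 5, Ctsg on small intestine 5 and Cebpe on liver 4 and small intestine 5. Only Gfi1, a repressor that T cells also express, was tested, and it was not called in any comparison, with a mean of 2.48 ± 0.46 in liver, 1.52 ± 0.94 in lung, 1.07 ± 1.54 in small intestine and 2.49 ± 0.27 in blood (SD, n = 5 each).

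Of 24 receptors and surface genes of mature neutrophils, 23 had a probe and 7 were tested. Fpr2, a receptor for formylated peptides of bacteria, was at least 2.87-fold higher in lung than in blood, limma adjusted p 0.0130, and at least 2.91-fold higher in lung than in liver, adjusted p 0.0158. In small intestine against lung it fell, adjusted p 0.0351, and lung was at least 2.58-fold higher. It met the filter through lung alone, so it was admitted by the site where it is high, and these calls set lung against background. It was well above background on lung 1, 2, 4 and 5, at 0.35, -0.95, 2.83 and 2.47, and on no array of another site, so liver 1, 2 and 4, the liver arrays with S100a8, S100a9 and Camp, had no detected Fpr2. These are the lung arrays with 9 or 10 of 10 alveolar macrophage markers. The calls in lung were lost with quantile normalization (0.0513 against blood and 0.0675 against liver). They were also lost without lung 5 (adjusted p 0.0550) or blood 3 (0.0541) against blood, and without liver 1 (0.0601), lung 4 (0.0532) or lung 5 (0.0582) against liver. Against liver the call was lost with normexp too (0.169). The call of the fall in small intestine was lost with normexp (0.142), with the replicate block (0.0648) and without any 1 of these: lung 1, 4 or 5, small intestine 1, 2 or 3, liver 4, or blood 2 or 5 (0.0514 to 0.151).

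Hdc, the enzyme that makes histamine, was at least 1.24-fold higher in small intestine than in blood, on 4 of 4 slides, limma adjusted p 0.0449, where 10.8% of all tested genes were called, and no other receptor or surface gene was called in that comparison. It met the filter through small intestine alone, with 4 small intestine, 3 liver, 1 lung and 0 blood arrays well above background. Hdc was thus admitted by the site where it is high, and the slides counted set small intestine against background. Its call and slide count are no support for a rise in small intestine. The call was lost with normexp (0.0742) and with quantile normalization (0.0873), without small intestine 1 (0.0986) or 2 (0.125), without any 1 blood array (0.0524 to 0.0989), and without liver 1, liver 2 or lung 5 (0.0529 to 0.0565). Monocyte and macrophage markers were most often seen on small intestine 1 and 2, with 11 of 14 each, and on 0 to 2 of 14 on blood arrays, and their part was not tested.

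Subunits of the NADPH oxidase, which makes the oxidative burst, were tested for 5 genes, and none was called in any comparison. Cyba averaged 5.38 ± 0.34 in liver, 5.31 ± 0.34 in lung, 4.97 ± 0.48 in small intestine and 5.18 ± 0.15 in blood, and Rac2, a GTPase that T cells use too, averaged 5.48 ± 0.29 in liver, 4.77 ± 0.53 in lung, 4.60 ± 1.07 in small intestine and 5.44 ± 0.40 in blood (SD, n = 5 each). Of 13 factors that recruit or expand neutrophils 5 were tested. Il17a, a cytokine that raises neutrophil numbers, met the filter through lung and small intestine. Its probe was well above background on 5 small intestine, 5 lung, 3 liver and 2 blood arrays. It was higher in small intestine than in blood by 3.48 ± 0.93 (SE), on 5 of 5 slides. The limma adjusted p was 0.0283, where 10.8% of all tested genes were called (873 of 8056). Small intestine, where Il17a is high, helped to admit it, so this call and its slide count are no support for a rise. That call was lost with normexp (difference 1.85, adjusted p 0.0517), without a filter on dim probes (0.0501) and with scaling on probes well above background everywhere (0.0688), without small intestine 1 (0.0589), 2 (0.0585) or 4 (0.0621) and without blood 4 (0.0623) or 5 (0.0740).

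**Figure D5:**
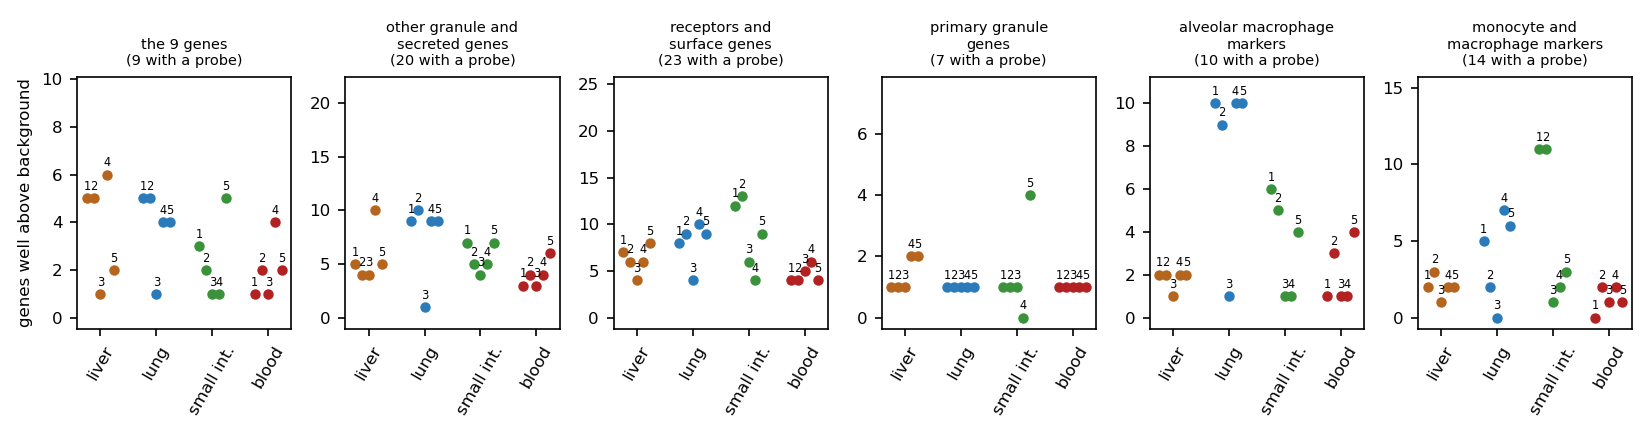
Number of genes well above background (vertical axis, out of those with a probe) on each array, by site and replicate number, for the 9 genes, 3 other neutrophil lists and 2 lists of macrophage markers. The 9 genes reach 6 on liver 4 and 1 on each array numbered 3, and alveolar macrophage markers reach 9 or 10 on lung 1, 2, 4 and 5.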

How the data were processed

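Cy3-labelled amplified RNA was read on 1-colour Agilent arrays, per the labels' protocols. Feature Extraction is given as 11.0.1.1 per the file headers and as 10.7, beside Partek, per the submitters' processing notes. It wrote, per the file headers, a linear intensity with the background already subtracted. A value table that the authors deposited holds log2 values and equals quantile-normalized log2 processed signal (median absolute difference 6.31e-05), with a median of 8.05 in each column. It served as an alternative.

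From the intensity, log2 was taken and the array's 75th percentile subtracted, leaving out 1377 control spots and 24 non-uniform spots. Spots of a probe were averaged, and 1 spot was saturated. Unversioned accessions matched a RefSeq gene table (GRCm38.p6) for 27508 of 39429 probes, over 20886 genes, and 11921 probes were left unnamed. Filtering left 8056 genes. They were tested with limma 3.58.1 (R 4.3.3), using lmFit, contrasts.fit and eBayes (1 coefficient per site, 16 residual degrees of freedom, two-sided), with Benjamini-Hochberg adjustment within each of 6 contrasts and a threshold of 0.05. A gene well above background on no array of a site is given as a bound against that site, with the adjusted p of the fit.

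The 9 genes and all lists were chosen with earlier results of these data known. All 9 are named. Of each other neutrophil list up to 4 called genes are named, or otherwise the 2 with the highest mean signal, and so are the 10 genes most and 5 least like the mean of the tested genes. The other named marker genes were picked after their values were seen. Alternatives were other scalings, normexp (offset 50, on median signals since mean signals were not in the files used here), filters, probe rules, spot flags, variance models, fits of 2 sites, the replicate block, the deposited table and leaving out arrays. The scripts were tested on simulated data. Figures were drawn with matplotlib 3.10.9.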

Additional observations from a re-analysis of the deposited data

Results flagged for a closer look

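Samples far from the others of their site were sought in the 6 genes detected at least once, over 24 groups of 5 arrays, with Dixon's ratio of the gap to the range and a limit of 0.71. Chance flags about 1 in 20 groups, and 4 of the 24 were past the limit. S100a8 on small intestine 5 was the highest of its site, at -1.21, and the only small intestine array where the probe was well above background. Camp on the same array was also the highest, at -1.13, and again the only one well above background. Retnlg on small intestine 5, at -4.27, was past the limit on the low side, but its probe was well above background on no small intestine array, so these are no measured levels and have no order. The 75th percentile signal that each value is set against was highest on that array, at 2845. Retnlg on liver 4 was the highest of its site, at 0.11, and the only array of the 20 where it was detected. The array labelled small intestine 5 is the one with 3 of 12 intestinal epithelium and Paneth cell markers, and the part of this in its values was not tested.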

How the results depend on the processing

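Over 40 settings no alternative brought a gene of the 9 that it tested past the threshold in the 5 tested comparisons, and the lowest adjusted p of a tested gene (limma) was 0.0665. The filter to genes well above background on all arrays left Csf3r alone of the 9. Of 785 differences in the 5 tested comparisons, 29 changed sign, from 6 differences. S100a8 in lung against liver, 0.10 in the report, was -0.32 with median scaling, -0.16 with normexp, -0.31 without liver 5 and small intestine 5, between -0.61 and 0.97 with 1 array left out, and -0.25, -0.027 and -0.37 without the arrays numbered 2, 3 and 5 of every site. S100a8 in small intestine against blood, -0.40, was 0.12 with normexp, 0.18 without blood 4 (-0.88 to 0.18 with 1 array left out) and 0.25 without the arrays numbered 4. S100a9 in lung against liver, 0.68, was -0.43 without liver 3 (-0.43 to 1.79 with 1 array left out) and -0.14 without the arrays numbered 5, and in small intestine against blood, -0.098, it was 0.40, 0.31 and 0.67 without small intestine 3, small intestine 4 or blood 4 (-0.84 to 0.67 with 1 array left out), and 1.08 without the arrays numbered 4. Csf3r in lung against blood, -0.0091, ran from -0.17 to 0.091 with 1 array left out and was 0.087 and 0.15 without the arrays numbered 2 and 4, and in lung against liver, -0.12, it ran from -0.28 to 0.073 and was 0.085 without the arrays numbered 4. The cause was not tested. With the replicate block, which is the slide, 0 of the 4 tested genes were called in the 5 tested comparisons, and over all genes 3, 114, 1163, 32, 0 and 9 were called for liver, lung and small intestine against blood, lung and small intestine against liver, and small intestine against lung, against 0, 66, 873, 23, 0 and 12 without it. Arrays of the same number did not deviate together in every comparison (correlations from -0.37 to 0.56, and 7 of 20 arrays were most like one of their own number). Without liver 5 and small intestine 5 those counts were 0, 175, 2118, 20, 1311 and 212, and scaled on probes well above background on all arrays they were 0, 24, 19, 16, 0 and 20. That scaling moved the median of all genes to -0.13, -0.48, -0.32, -0.25, -0.12 and 0.076, against 0.051, -0.30, -0.36, -0.25, -0.34 and -0.15, and median scaling moved it to 0.13, -0.64, -0.59, -0.67, -0.65 and -0.037. Leaving out the arrays of 1 number and leaving out population outlier spots were chosen after the data were seen. Of the 8 calls of other neutrophil genes, each was lost under 8 to 25 of 39 alternatives and none changed sign. Signal over background limits the detection of Ngp, Mmp8, Mmp9, Retnlg and Camp.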
